A study of Mus musculus with 4 samples.

Results

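A set of 9 genes of the canonical Wnt pathway was followed across the endothelial cells of the neonatal mouse ear: Dkk2, Lef1, Fzd4, Fzd6, Lrp5, Lrp6, Axin2, Apcdd1 and Ctnnb1. They were chosen by symbol, 9 of the 31054 features in each of the 2 mRNA matrices, and each symbol matched 1 feature. The cells came from ears of C57BL/6 mice at postnatal day 8 and formed 1 group of 2 biological replicates, here library 1 and library 2. After dissociation and magnetic enrichment for CD31 (the endothelial protein Pecam1), live cells were sorted that carried CD31 and the red reporter Rtom, which Cdh5CreERT2 (a tamoxifen-inducible recombinase driven by the endothelial Cdh5 promoter) had switched on. All cells shared Cdh5CreERT2 and the reporter, the adult groups are not analysed here, and a library may hold more than 1 animal because the labels do not give the number pooled. Single-cell libraries were made with the 10x 3′ v3 chemistry, which counts transcripts by unique molecular identifiers (UMIs). Antibody tag libraries of the same cells were not used here. With 1 group, each comparison set cell types against each other within the same 2 libraries.

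Canonical Wnt signalling starts when a Wnt ligand or Norrin binds a Frizzled receptor together with the co-receptor Lrp5 or Lrp6. The destruction complex around Axin and Apc then stops degrading β-catenin, which enters the nucleus and activates genes with TCF and LEF factors, among them Axin2, Lef1 and Apcdd1, which feed back on the pathway. In endothelium the pathway is best known for vessel growth in the retina and for the blood-brain barrier, where Norrin, Fzd4, Lrp5 and Tspan12 act together, and for the formation of lymphatic valves. Frizzled-6 is best known from planar cell polarity, a branch that runs without β-catenin.

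Library 1 held 1745 barcodes and 15989249 UMIs, and library 2 held 2877 barcodes and 26675353 UMIs. Filters left 1498 and 2239 cells with medians of 8459 and 8982 UMIs, and 1 barcode was shared by kept cells of both libraries. Cells were put into types by marker gates that use none of the Wnt genes. In libraries 1 and 2, the lymphatic gates held 63 and 188 lymphatic capillary cells (Lyve1 at or above the lymphatic median and no Foxp2), 65 and 55 collecting-type cells (Foxp2 and lower Lyve1), 40 and 28 valve cells (Cldn11, Neo1, Foxc2, Gata2, Nfatc1, Gja4) and 42 and 100 dividing cells. The Lyve1 median was taken within each library, so this cut differed, at 12.2 in library 1 and 20.9 in library 2 on the same depth-scaled measure. The blood gates held 131 and 178 arteriole, 51 and 30 large artery (elastin-rich), 158 and 155 vein, 167 and 261 blood capillary, 95 and 207 tip (Esm1 or Kcne3) and 143 and 210 dividing cells. Between 4 and 6 of 6 pan-endothelial markers, which no gate used, were detected in the median cell of each type. The summed level of the 8 pan-lymphatic markers was 4099 to 20316 CPM (UMI counts scaled to a common library total) in lymphatic types and 21.1 to 84.6 CPM in blood types, whose gate allowed at most 1 of 7 of them. Of 3737 kept cells, 2367 fell into these 10 types. The others lay between gates or were set aside for markers of other cells, such as 103 and 146 pericyte-marker cells. Many cells lay near a cut: 34 cells had just the 3 markers that the lymphatic gate required and 73 had 1 fewer, 14 and 12 cells lay just inside and just outside the valve cut on Cldn11 and Neo1, and 188 and 208 cells stood on either side of the artery cut. The cuts of other blood gates were crowded too. Of the 302 tip cells, 129 had just the 4 markers required, and 355 non-dividing blood cells had 1 fewer. For blood capillary cells these numbers were 170 and 297, and for vein cells 55 and 459.

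The 250 bases before the RefSeq start site are shown for Dkk2 and Fzd4, which had the highest levels in large artery cells, and for Axin2 and Lef1, as targets of the pathway itself. The coordinates are those of GRCm38.p6 on the plus strand, chr3:132085042-132085291 for Dkk2, chr7:89404116-89404365 for Fzd4, chr11:108920099-108920348 for Axin2 and chr3:131110047-131110296 for the most upstream Lef1 start. Capitals mark matches to the core of the TCF/LEF motif, searched as CTTTGA and CTTTGT on both strands.
Dkk2: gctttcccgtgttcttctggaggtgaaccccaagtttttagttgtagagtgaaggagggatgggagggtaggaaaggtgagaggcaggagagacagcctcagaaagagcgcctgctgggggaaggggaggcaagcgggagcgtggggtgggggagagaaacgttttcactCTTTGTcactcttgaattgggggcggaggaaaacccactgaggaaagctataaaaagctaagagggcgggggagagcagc
Fzd4: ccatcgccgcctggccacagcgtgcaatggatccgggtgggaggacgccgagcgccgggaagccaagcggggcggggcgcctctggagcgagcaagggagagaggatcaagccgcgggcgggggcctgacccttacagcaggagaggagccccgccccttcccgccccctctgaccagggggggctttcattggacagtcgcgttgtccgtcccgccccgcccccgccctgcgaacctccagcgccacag
Axin2: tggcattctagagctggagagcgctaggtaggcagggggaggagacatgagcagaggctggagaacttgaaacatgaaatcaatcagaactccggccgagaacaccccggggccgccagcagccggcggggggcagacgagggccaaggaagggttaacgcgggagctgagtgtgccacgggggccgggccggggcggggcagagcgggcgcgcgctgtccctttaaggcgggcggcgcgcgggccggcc
Lef1: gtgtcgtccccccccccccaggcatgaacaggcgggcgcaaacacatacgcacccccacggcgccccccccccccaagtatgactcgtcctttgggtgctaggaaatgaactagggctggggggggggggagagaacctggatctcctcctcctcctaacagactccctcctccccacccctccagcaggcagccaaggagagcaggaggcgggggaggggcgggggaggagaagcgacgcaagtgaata
Dkk2 held 1 match, starting 80 bases before the start site, and the other windows shown held 0. Over all 32851 RefSeq windows of this length, 27.6% held a match, so 1 match is common. Another Lef1 start, with its window at chr3:131156044-131156293, held 3 matches. RefSeq windows were matched for 5 of the 9 genes. By the GENCODE annotation of the same build, all 9 are protein-coding genes.

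Levels are CPM summed over all cells of a type in a library, scaled by edgeR's TMM factors, and changes are log2 differences from edgeR's quasi-likelihood test with the standard error (SE) and the p-value adjusted over all 10525 genes tested. Lef1 and Apcdd1 were too low for the test, which leaves 7 of the 9 genes. Of their 49 gene-by-comparison tests, 17 passed an adjusted p of 0.05. Within the lymphatic tree, 2 of 7 passed between collecting-type and lymphatic capillary cells, both higher in collecting-type cells, where 6.27% of all genes passed (3.8% higher, 2.47% lower). Valve cells differed from the mean of the other 2 lymphatic types in 2 of 7, both lower, with 6.69% of all genes passing (3.65% higher, 3.04% lower). Lymphatic types differed from blood types in 4 of 7 (1 higher, 3 lower), where 35.8% of all genes passed (17.8% higher, 18% lower). Arterial cells differed from vein cells in 4 of 7, all higher, against 17.9% of all genes (7.54% higher, 10.4% lower). Large artery cells differed from arteriole cells in 2 of 7, both higher, against 10.5% of all genes (4.73% higher, 5.76% lower). Blood capillary cells differed from artery and vein cells in 3 of 7, all lower, against 10.5% (5.83% higher, 4.7% lower). Tip cells differed from blood capillary cells in 0 of 7 by edgeR, against 4.54% (2.38% higher, 2.17% lower), and DESeq2 also called 0, while 1 of the 7 had an unadjusted p under 0.05 in edgeR. The median log2 change over the 7 genes was 0.58, 0.28, -0.53, 0.45, 0.30, -0.21 and -0.31 in these comparisons in turn, and that over all genes lay between -0.09 and 0.04.

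**Figure D1:**
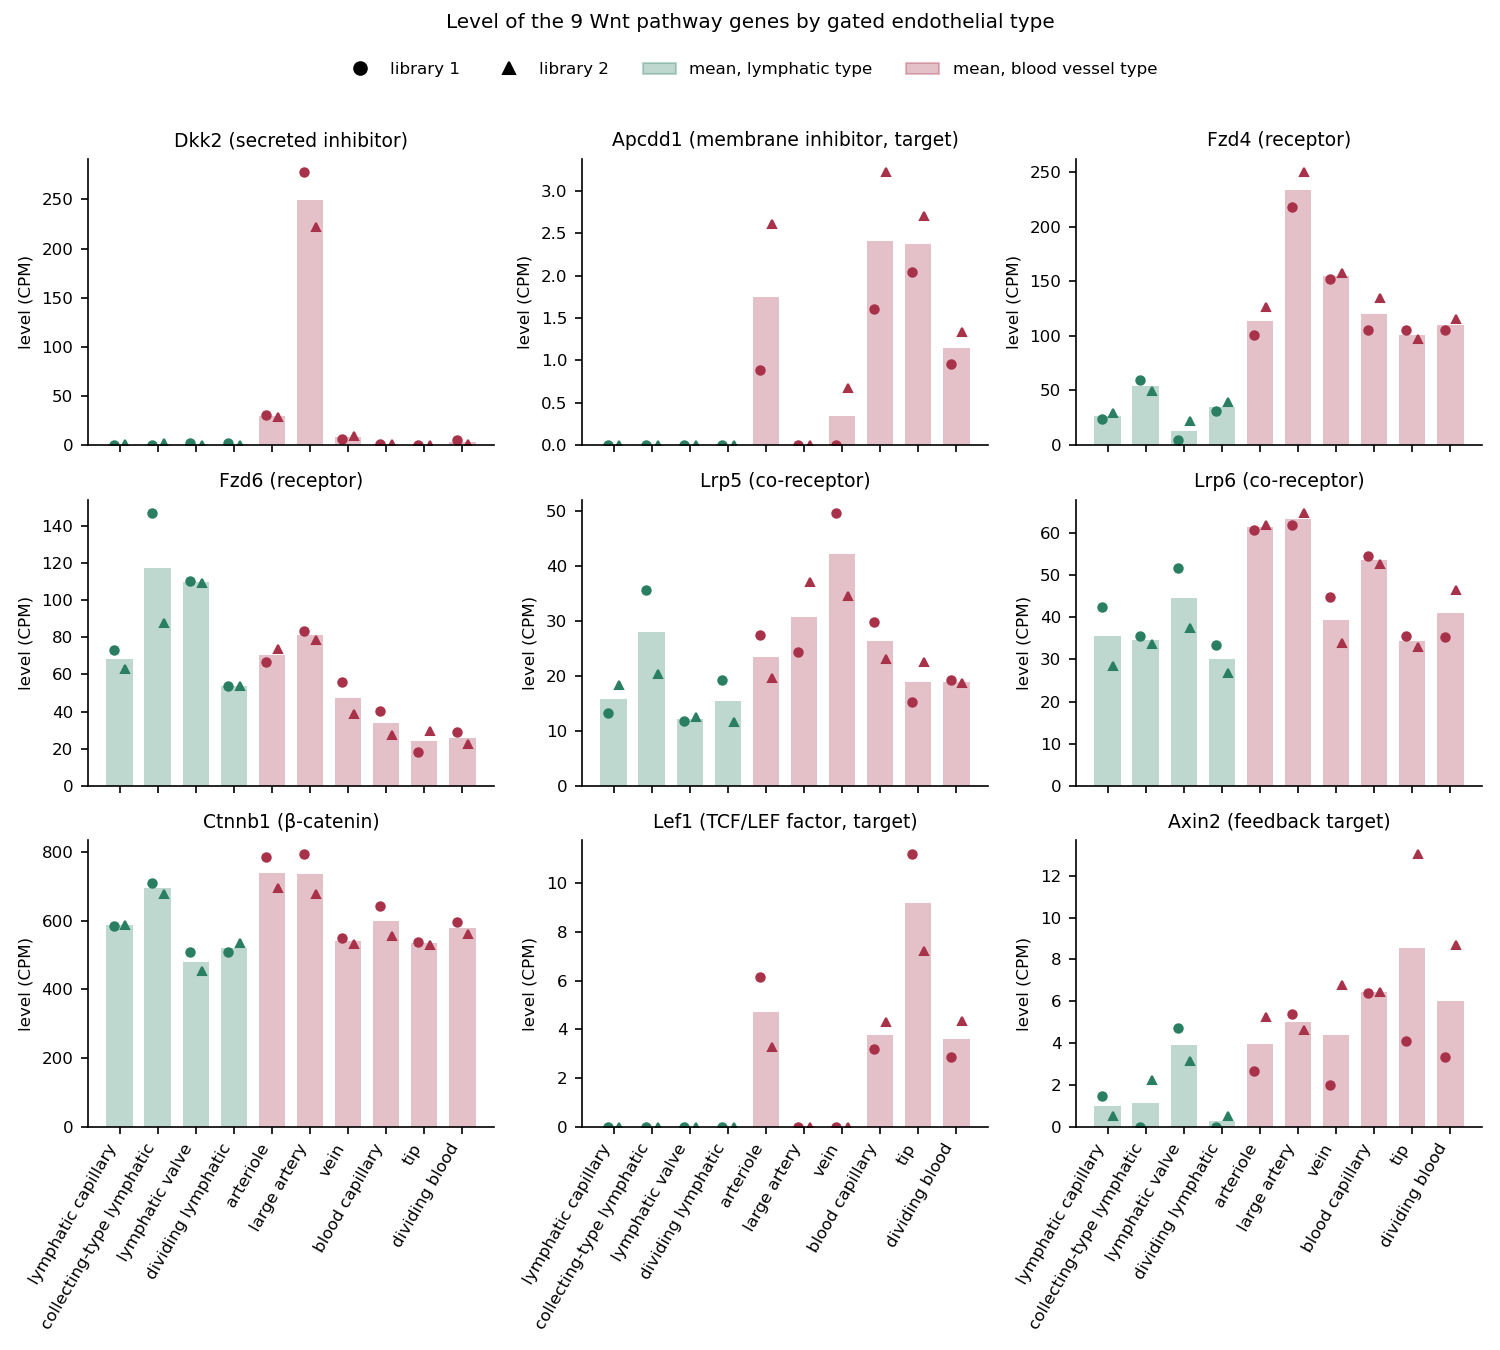
Level (CPM, linear axes from 0) of the 9 genes in the 10 gated types, with circles for library 1, triangles for library 2 and bars for their mean, green for lymphatic and red for blood vessel types. Dkk2 stands at 222 to 278 CPM in large artery cells and at 30.8 CPM or less in every other type, Fzd4 is higher in all blood types than in all lymphatic types, and Lef1 has 0 UMIs in the 4 lymphatic types, large artery and vein.

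Dkk2, a secreted antagonist that binds Lrp5 and Lrp6, was almost restricted to arterial cells and was highest in large arteries. It stood at 278 and 222 CPM in large artery cells (103 and 48 UMIs), 30.8 and 28.7 CPM in arteriole cells and 6.60 and 9.49 CPM in vein cells. These 3 types did not overlap between libraries. Blood capillary cells held 1 and 2 UMIs, the 4 lymphatic types 6 UMIs over both libraries, and tip cells 0 UMIs in either. Large artery cells exceeded arteriole cells by a log2 change of 3.06 ± 0.28 (SE, adjusted p = 3.88e-09), and arterial cells exceeded vein cells by 3.41 ± 0.32 (adjusted p = 2.44e-09). Blood capillary cells lay below the mean of artery and vein cells by a log2 change of -5.18 ± 0.53 (adjusted p = 3.75e-08), an estimate that rests on those 3 capillary UMIs and came to -4.11 without library 1 and -3.92 without library 2. Against the floor of 3 UMIs in the 3304025 UMIs of the tip cells of both libraries, large artery cells were at least 290-fold higher. The gradient was also seen cell by cell. A Dkk2 UMI was present in 66.7% of 51 and 60% of 30 large artery cells (56.0% and 53.8% after thinning each cell to 4000 UMIs, with 50 and 26 cells deep enough). The share was 12.2% and 12.4% in arteriole cells, and it was 0.599% and 0.766% in blood capillary cells. Tip cells, with 0 of 302, were the deeper ones, at medians of 9277 and 10282 UMIs against 6711 and 6032 in large artery cells. A wider arterial gate, on Nebl or Pi16, gave 123 and 130 CPM. Between lymphatic and blood types the fit gave no usable Dkk2 estimate (SE of 417 on the log2 scale, adjusted p = 1), since tip cells held no UMI.

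Markers of smooth muscle were also highest in large artery cells among the 10 types. The 10 pericyte and smooth muscle markers summed to 54.6 and 237 CPM there and to 2.15 to 34.1 in the other types, with Acta2 leading at 14 and 49 UMIs and 6 markers (Cspg4, Notch3, Abcc9, Kcnj8, Des, Vtn) at 0. In pericyte-marker cells, where the list reached 5940 and 5298 CPM, Dkk2 stood at 8.41 and 3.14 CPM. The part of smooth muscle RNA in the large artery level of Dkk2 was not tested.

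Apcdd1, a membrane-bound inhibitor and a target of β-catenin, was the rarest of the 9. It had 28 UMIs in 1786 blood cells and 0 in 581 lymphatic cells. Pooled over both libraries, the blood level was 1.56 CPM without TMM scaling and at least 3.70-fold above the lymphatic floor of 3 UMIs. By type it reached 1.60 and 3.22 CPM in blood capillary cells, 2.04 and 2.70 CPM in tip cells and 0.881 and 2.61 CPM in arteriole cells, values that overlap, with 0 UMIs in large artery cells. Levels of this kind rest on 1 to 6 UMIs per library and order no blood type above another.

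Fzd4, the Norrin receptor, was higher in every blood type than in every lymphatic type. Large artery cells stood highest at 218 and 250 CPM, vein cells followed at 152 and 157 CPM, and both stood clear of all other types in each library. Blood capillary (105 and 135 CPM), arteriole (100 and 126 CPM), dividing blood (105 and 115 CPM) and tip cells (105 and 97.2 CPM) formed a middle group. In that group tip cells lay below blood capillary and dividing blood cells without overlap, though by a narrow margin in library 1, and the other pairs overlapped. Lymphatic types held 59.1 and 49.5 CPM in collecting-type cells, 30.9 and 39.5 CPM in dividing cells, 23.4 and 29.5 CPM in capillary cells and 4.71 and 21.9 CPM in valve cells. These 4 types stood in steps that did not overlap between libraries. Lymphatic capillary and collecting-type cells were lower than blood types by a log2 change of -1.82 ± 0.13 (adjusted p = 7.34e-13).

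Along the lymphatic tree Fzd4 went up and then down. It was higher in collecting-type than in capillary cells, by 1.03 ± 0.27 (SE, adjusted p = 0.0168), and lower in valve cells than in the mean of both, by -1.66 ± 0.42 (adjusted p = 0.0112). The valve value rests on 2 and 7 UMIs. The log2 difference was -2.56 in library 1 alone and -0.76 in library 2 alone, so its size depends on the library, and stricter gates left it at -1.65 with an adjusted p of 0.0590. Among blood types Fzd4 was higher in large artery than in arteriole cells (1.04 ± 0.18, adjusted p = 0.000116). No difference passed between the mean of the arterial types and vein cells (0.07, 95% interval -0.19 to 0.34). That mean joins types on either side of vein cells, which lay above arteriole and below large artery cells without overlap. Blood capillary cells were lower than artery and vein cells by -0.41 ± 0.12 (adjusted p = 0.0235), a call lost without the library block (adjusted p = 0.136) and with stricter gates (adjusted p = 0.130). Pericyte-marker cells, which also carried pan-endothelial markers, held 122 and 119 CPM of Fzd4.

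Fzd6, in contrast, was highest in lymphatic cells. It led in collecting-type lymphatic cells, at 147 and 87.7 CPM, and in valve cells, at 111 and 109 CPM, types that overlap. Large artery (83.5 and 78.6 CPM), arteriole (66.9 and 73.8 CPM) and lymphatic capillary cells (73.1 and 63.1 CPM) followed. Vein cells held 56.1 and 38.6 CPM, dividing lymphatic cells 54.0 and 53.7 CPM and blood capillary cells 40.1 and 27.4 CPM. Tip cells had 18.3 and 29.7 CPM and dividing blood cells 29.2 and 22.7 CPM, the lowest levels. Lymphatic capillary and collecting-type cells exceeded blood types by 0.93 ± 0.14 (SE, adjusted p = 1.7e-06). Among blood types Fzd6 was lower in capillary than in artery and vein cells (-0.97 ± 0.20, adjusted p = 0.000877, or -0.58 and adjusted p = 0.196 with stricter gates).

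In collecting-type cells Fzd6 was higher than in lymphatic capillary cells, by 0.81 ± 0.22 (adjusted p = 0.0186), with 87 and 39 UMIs against 50 and 124. The call was lost with DESeq2 (adjusted p = 0.0738), without the library block (adjusted p = 0.0641) and with stricter gates (adjusted p = 0.229), and the difference was 0.47 in library 2 alone. Collecting-type cells of the 2 libraries also differed in the summed pan-lymphatic markers (4099 and 12093 CPM) and in 6 fibroblast markers (124 and 32.3 CPM, led by Postn with 67 and 5 UMIs, and with Col1a1, Lum and Pdgfra at 0). Lyve1, 1 of these pan-lymphatic markers, was also cut at a lower level in library 1 when these cells were gated. The part of these differences in the Fzd6 spread was not tested. Valve cells did not pass for Fzd6 against the other lymphatic types (0.28, 95% interval -0.17 to 0.73). Arterial cells exceeded vein cells in Fzd6 by 0.68 ± 0.20 (adjusted p = 0.0184). That difference was 0.40 in library 1 alone and 0.22 with Leiden clusters in place of gates (adjusted p = 0.538), and it was lost without the library block (adjusted p = 0.0516) and with stricter gates (adjusted p = 0.135). The vein gate was itself mixed, since vein cells rich in elastin held 93.2 and 73.5 CPM of Fzd6 and the other vein cells 42.9 and 34.2 CPM.

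**Figure D2:**
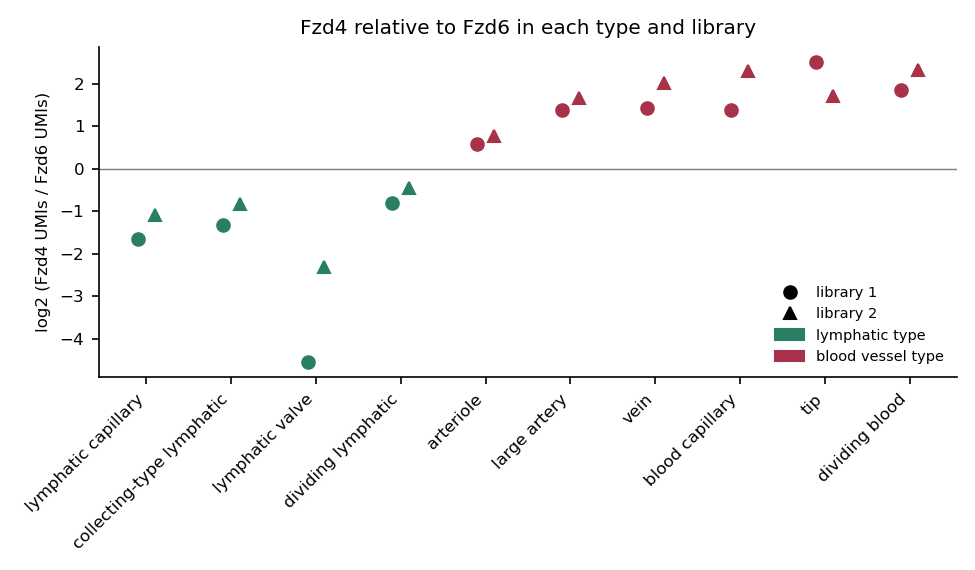
Log2 ratio of Fzd4 UMIs to Fzd6 UMIs within each type, with circles for library 1 and triangles for library 2, green for lymphatic and red for blood vessel types. All 8 lymphatic points lie below 0 and all 12 blood points above it.

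The balance of the 2 receptors therefore differed between the lymphatic and the blood branch. The log2 ratio of Fzd4 to Fzd6 UMIs was -1.64 and -1.10 in lymphatic capillary cells, -1.31 and -0.83 in collecting-type cells, -4.56 and -2.32 in valve cells and -0.81 and -0.44 in dividing lymphatic cells. It was 0.58 and 0.77 in arteriole cells, 1.39 and 1.67 in large artery cells, 1.44 and 2.02 in vein cells, 1.39 and 2.30 in blood capillary cells, 2.52 and 1.71 in tip cells and 1.85 and 2.34 in dividing blood cells. The ratio compares types, not the abundance of the receptors, because capture can differ between genes. Both receptors were detected together in 25.0% of 120 collecting-type cells (exact 95% interval 17.6% to 33.7%), in 10.8% of 251 lymphatic capillary cells (7.21% to 15.3%) and in 5.88% of 68 valve cells (1.63% to 14.4%), intervals that cover counting error only. Lymphatic capillary cells were the deeper of the first pair, with medians of 9559 and 9505 UMIs against 7626 and 7176. Arteriole cells held both in 29.1% of 309 cells (24.1% to 34.5%) and blood capillary cells in 11% of 428 (8.18% to 14.3%), at like depths of 6643 and 7012 against 6344 and 6818 UMIs. Dividing lymphatic cells held both in 29.6% of 142 cells (22.2% to 37.8%), at medians of 17319 and 18940 UMIs. Each share depends on how often either receptor was detected alone, and joint detection beyond that was not tested.

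Lrp5 and Lrp6, the single-pass co-receptors, varied less. Lrp5 was highest in vein cells, at 49.5 and 34.6 CPM, and lowest in valve cells, at 11.8 and 12.5 CPM. Large artery (24.3 and 37.0 CPM), collecting-type (35.5 and 20.2 CPM) and blood capillary cells (29.7 and 23.1 CPM) overlapped one another, and in the order of the 10 means only 1 of 9 neighbouring pairs was apart in both libraries. No comparison passed for Lrp5 with the gated types. With Leiden clusters in place of gates it was lower in lymphatic than in blood types (-0.57, adjusted p = 0.00600, against -0.29 and adjusted p = 0.314 with gates). The closest with gates was arterial against vein cells, at -0.71 ± 0.25 (SE, adjusted p = 0.0523), which came to an adjusted p of 0.0366 with doublets kept, 0.0398 with no low-count filter and 0.0442 with no cell filter, and to 0.0505 to 0.266 in the other settings with a test.

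Lrp6 was highest in large artery cells, at 62 and 64.7 CPM, and arteriole cells, at 60.8 and 62 CPM, which overlap. Blood capillary cells held 54.5 and 52.6 CPM, and all other types lay at 51.8 CPM or below. Arterial cells exceeded vein cells (44.9 and 33.9 CPM) by 0.66 ± 0.20 (SE, adjusted p = 0.0204). That difference was 0.43 in library 1 alone, and it was lost with Leiden clusters (adjusted p = 0.0855) and with stricter gates (adjusted p = 0.0801). Lymphatic capillary and collecting-type cells were lower than blood types by -0.53 ± 0.16 (adjusted p = 0.00890, or 0.131 with stricter gates). Tip cells held 35.7 and 32.9 CPM and lay below blood capillary cells by -0.65 ± 0.20, which did not pass (adjusted p = 0.0568). With stricter gates, with no low-count filter and with no cell filter it passed, at adjusted p = 0.0459, 0.0491 and 0.0236. It did not pass with doublets kept (adjusted p = 0.0577), without the library block (0.148) or with DESeq2 (0.275), and Leiden clusters gave 0.014 with the sign turned (adjusted p = 1).

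Ctnnb1, which encodes β-catenin and also serves at cell junctions, was detected in 89.3% to 100% of the cells of each type and library. Its level spanned 454 to 795 CPM. Arteriole (785 and 695 CPM), large artery (795 and 679 CPM) and collecting-type cells (711 and 679 CPM) stood highest and overlapped, and valve cells stood lowest, at 508 and 454 CPM. Valve cells were lower than the other lymphatic types by -0.41 ± 0.10 (SE, adjusted p = 0.00947, or 0.0577 with stricter gates), and arterial cells were higher than vein cells (549 and 533 CPM) by 0.45 ± 0.09 (adjusted p = 0.000279). Leiden clusters also gave a lower level in blood capillary than in artery and vein cells (-0.33, adjusted p = 0.00392), a difference that did not pass with gates. The lymphatic against blood difference was 0.03, with a 95% interval of -0.09 to 0.16. The RNA level says nothing on the amount or place of the protein, which is where the pathway acts.

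Lef1, a DNA-binding partner of β-catenin and a target of the pathway, was found in blood endothelium and not in lymphatic cells at this depth. It had 70 UMIs in 1786 cells of the 6 blood types and 0 in 581 lymphatic cells, at least 9.24-fold higher in blood against the floor of 3 UMIs in the 7124643 lymphatic UMIs of both libraries. Tip cells stood highest, at 11.2 and 7.20 CPM (11 and 16 UMIs). Arteriole (6.17 and 3.26 CPM), blood capillary (3.21 and 4.29 CPM) and dividing blood cells (2.87 and 4.35 CPM) followed and overlapped one another. Vein and large artery cells held 0 UMIs in either library, and tip cells were at least 8.48-fold above the vein floor but at least 1.56-fold above the large artery floor, since only 81 large artery cells were measured. A Lef1 UMI was present in 11.6% of 95 and 7.25% of 207 tip cells, and in 4.26% and 2.5% after thinning, against 0 of 313 vein cells. The thinned share in arteriole cells, at 3.36% and 1.30%, overlapped that of tip cells. So did the level in a finer gate of blood capillary cells with Lrat or Col13a1, described below, at 6.62 and 7.70 CPM.

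Axin2, the feedback scaffold of the destruction complex and the most widely used readout of the pathway, was low everywhere. Tip cells had 4.08 and 13.1 CPM (4 and 29 UMIs), blood capillary cells 6.42 and 6.44 CPM and dividing blood cells 3.35 and 8.70 CPM. Library 2 was higher in 7 of 10 types. Lymphatic capillary cells had 1 UMI in each library and collecting-type cells 0 and 1. Valve cells had 2 and 1 UMIs, or 4.71 and 3.13 CPM. Lymphatic capillary and collecting-type cells were lower than blood types by -2.63 ± 0.69 (SE, adjusted p = 0.00290). This rests on 3 lymphatic UMIs, and the difference was -1.15 and -1.67 in library 1 and library 2 alone, where a prior count of 2 draws low values together. Valve against other lymphatic cells did not pass (2.25 ± 1.24, adjusted p = 0.373), nor did tip against blood capillary cells (0.52 ± 0.48, adjusted p = 0.703). With Leiden clusters as types, of which the tip cluster shared 50% of the gated tip cells, Axin2 was higher in tip cells by 2.10 (adjusted p = 0.0109).

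**Figure D3:**
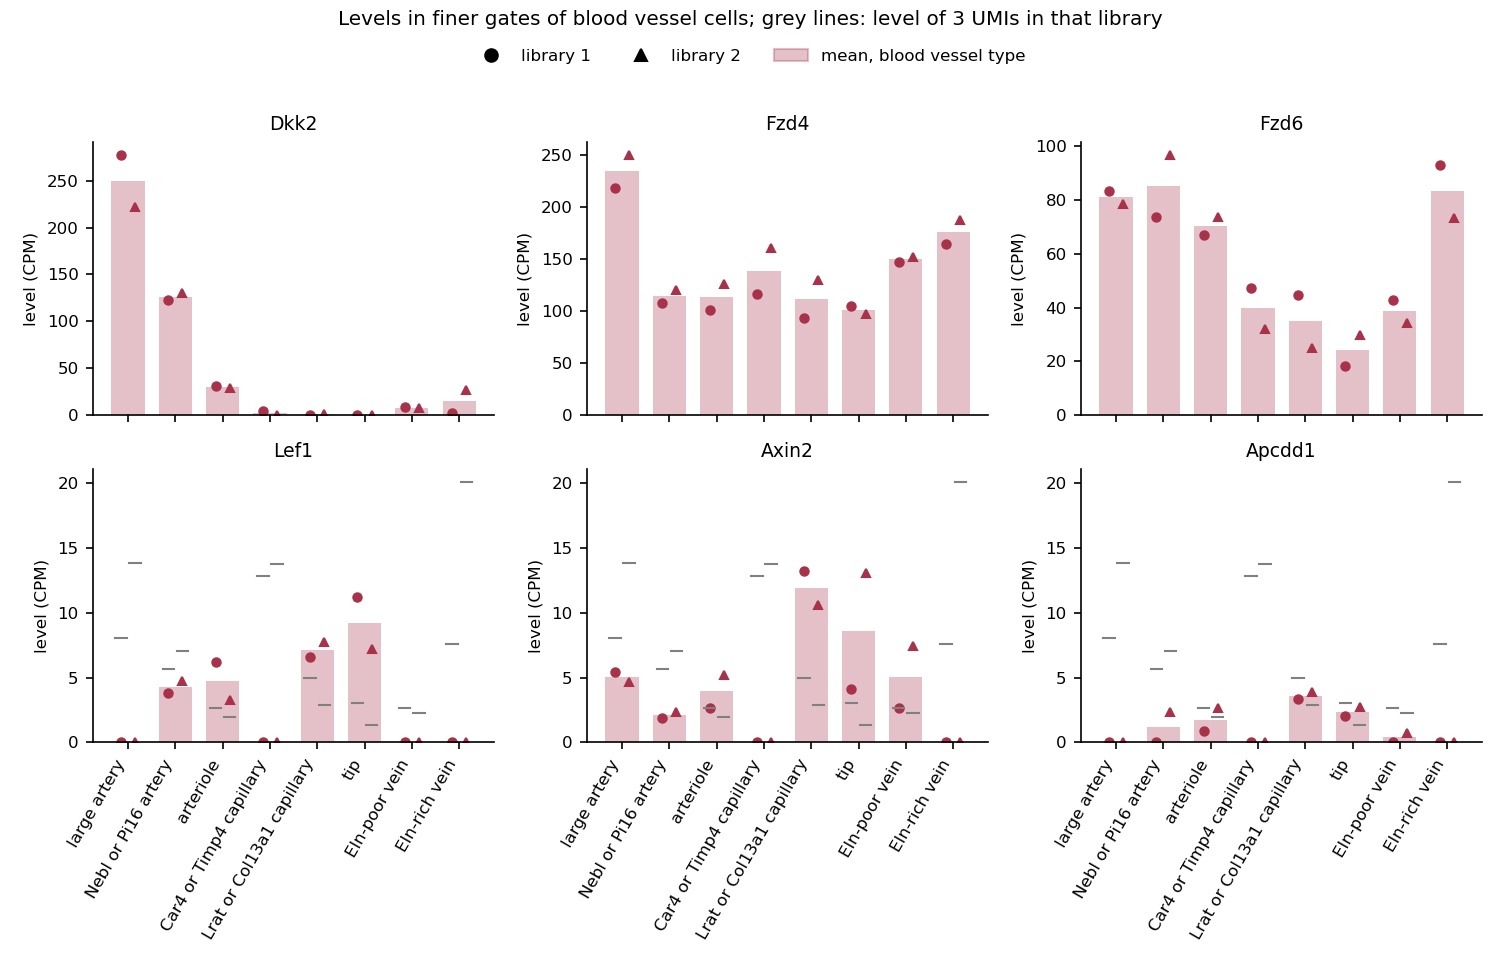
Level (CPM, linear axes from 0) of 6 genes in finer gates of blood vessel cells, with circles for library 1, triangles for library 2 and bars for their mean. Grey lines mark the level that 3 UMIs would give in that library, and Dkk2 falls from large artery to arteriole while Lef1, Axin2 and Apcdd1 were detected in Lrat or Col13a1 capillary cells and had 0 UMIs in the smaller Car4 or Timp4 gate.

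Within blood capillary cells the 3 targets were detected on 1 side of a split, the other side of which was small. Cells with Lrat or Col13a1 and neither Car4 nor Timp4 (76 and 146 cells) held 13.2 and 10.6 CPM of Axin2, 6.62 and 7.70 CPM of Lef1 and 3.31 and 3.85 CPM of Apcdd1. Cells with Car4 or Timp4 and neither of the other pair (35 and 28 cells) held 0 UMIs of each in both libraries. The second gate is small, with 447432 UMIs in all. Its floor of 3 UMIs is 6.71 CPM without TMM scaling, so the first gate was at least 1.69-fold higher for Axin2 and at least 1.07-fold higher for Lef1, and its Apcdd1 level lay below that floor. Fzd4 was present in both, at 92.7 and 130 CPM in the Lrat or Col13a1 gate and 116 and 161 CPM in the Car4 or Timp4 gate. These finer gates were not tested.

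**Figure D4:**
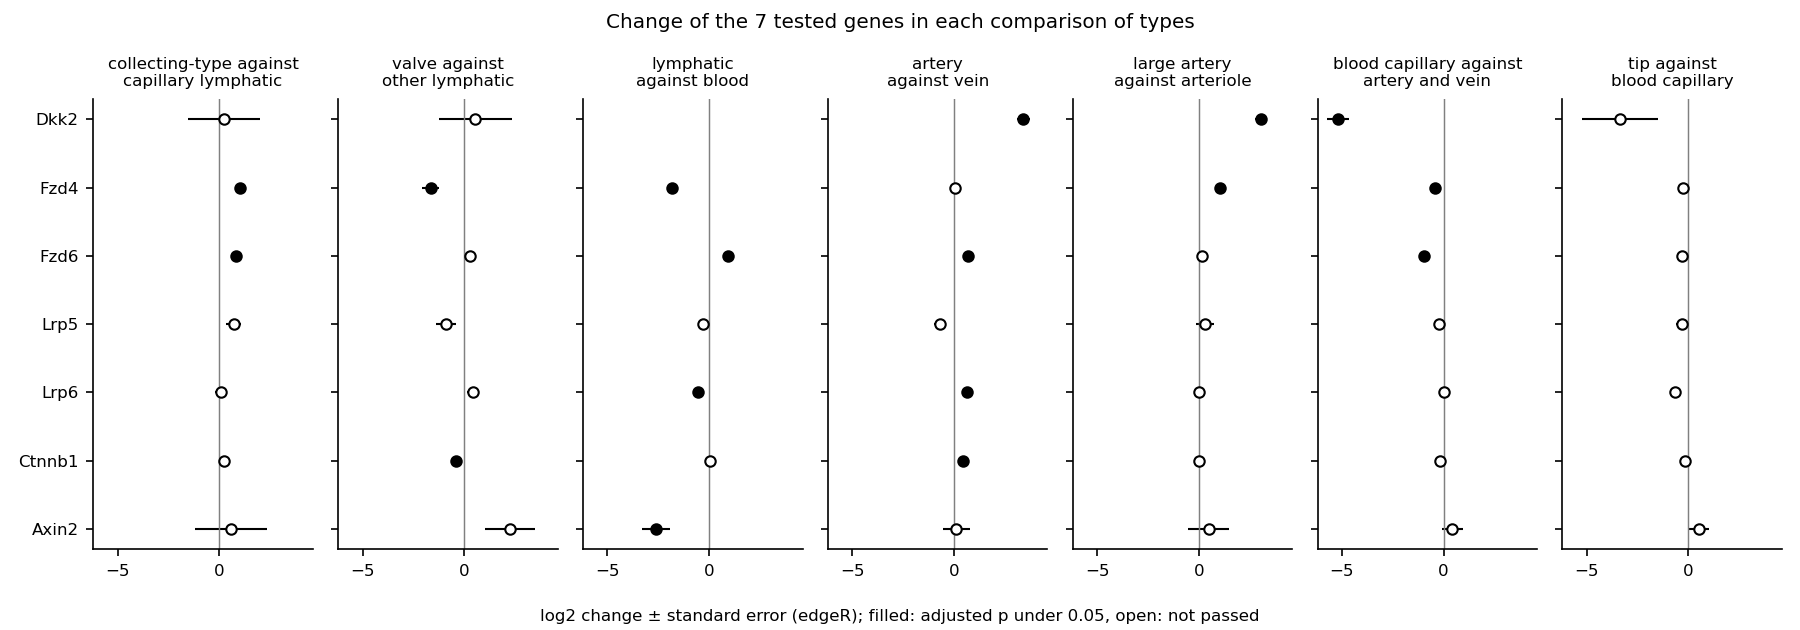
Log2 change with its standard error (edgeR) of the 7 tested genes in the 7 comparisons, filled where the adjusted p was under 0.05 and open where it was not. Dkk2 shows the longest distances from 0, its lymphatic against blood point is left out because the fit gave no usable error, and the tip against blood capillary panel holds no filled point.

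The other genes of the pathway came from fixed lists of 111 ligands, receptors, inhibitors, machinery and targets, of which 59 were tested, the 7 genes above included. Between collecting-type and lymphatic capillary cells 6 were higher and 2 lower, or 13.6% against 6.27% of all genes. Dkk3, which the lists place among the inhibitors, was higher (50.7 and 69.7 CPM against 17.5 and 26.5 CPM, log2 change 1.29 ± 0.34, adjusted p = 0.0186). So was Bambi, a pseudoreceptor for TGF-β ligands (188 and 184 CPM against 73.1 and 60.1 CPM, 1.57 ± 0.21, adjusted p = 8.44e-06). Any effect of Dkk3 on the pathway was not tested. The ligand Wnt5b had 23.6 and 6.75 CPM against 0 and 1.02 CPM (adjusted p = 0.0142), and the corepressor Aes was higher by 0.51 ± 0.13 (adjusted p = 0.00975). The cyclins Ccnd1 and Ccnd2, widely used targets, were lower, by -0.72 and -0.98 (adjusted p = 0.0287 and 0.000526).

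Valve cells had 4 of the 59 higher and 6 lower than the other lymphatic types, or 16.9% against 6.69% of all genes. Higher were Apc, a scaffold of the destruction complex (235 and 260 CPM against 93.0 and 114 CPM, 1.28 ± 0.16, adjusted p = 3.1e-06), the Dishevelled-binding feedback target Nkd1 (58.8 and 50 CPM against 14.9 and 12.7 CPM, 2.00 ± 0.36, adjusted p = 0.000403) and Dkk3 (132 and 93.8 CPM, 1.59 ± 0.28, adjusted p = 0.000307). None of these overlapped. Bambi, Ccnd1 and Ccnd2 were lower, by -1.62, -1.53 and -1.13 (adjusted p = 0.00072, 0.000265 and 0.00107). Among the 10 tested genes of the target list, 1 was higher and 4 were lower in valve cells, where 3.65% of all genes were higher and 3.04% lower.

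Between lymphatic and blood types 11 of the 59 were higher and 14 lower, or 42.4%, near the 35.8% of all genes. Dkk3 (34.1 and 48.1 CPM against 0.660 and 1.17 CPM), Nkd1 (14.9 and 12.7 CPM against 0.657 and 1.60 CPM), the ligand Wnt5a (11 and 13.4 CPM against 0.132 and 1.25 CPM) and the corepressor Tle1 (92.6 and 99.3 CPM against 37.2 and 34.1 CPM) were higher in lymphatic cells (adjusted p from 6.07e-13 to 5.04e-07). Tspan12, the partner of Fzd4 in Norrin signalling, was lower (61.3 and 61.9 CPM against 118 and 116 CPM, -0.91 ± 0.11, adjusted p = 1.41e-07), and so was Ctnnbip1, which blocks β-catenin from binding TCF factors (72.9 and 69.2 CPM against 263 and 232 CPM, -1.59 ± 0.11, adjusted p = 2.78e-13). Of the 10 tested target-list genes, 1 was higher and 6 were lower in lymphatic cells (17.8% and 18% of all genes), with a median log2 change of -1.26 against 0.003 over all genes.

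Arterial cells had 10 of the 59 higher and 5 lower than vein cells, or 25.4% against 17.9% of all genes, with a median log2 change of -0.02. Adgra2, a co-receptor for Wnt7 ligands, was higher (24.5 and 22.7 CPM against 10.6 and 7.45 CPM, 1.37 ± 0.35, adjusted p = 0.00446), and Tcf7l1, a mostly repressive TCF factor, was lower (-0.91 ± 0.20, adjusted p = 0.00122). Ccnd1 was lower in arterial cells (-1.92 ± 0.17, adjusted p = 8.52e-10) and Ccnd2 higher (0.93 ± 0.13, adjusted p = 1.65e-06), while Cd44 (4.21 ± 0.69, adjusted p = 4.13e-05) and Aes (0.66 ± 0.10, adjusted p = 1.31e-05) were higher. Large artery cells had 5 higher and 5 lower than arteriole cells, or 16.9% against 10.5% of all genes. They carried the receptor Fzd1 (37.7 and 27.7 CPM against 2.64 and 4.57 CPM, 3.08 ± 0.60, adjusted p = 0.000487) and the secreted inhibitor Sostdc1 (10 and 2 UMIs against 0 and 0, adjusted p = 0.000662) beside Dkk2. Ctnnbip1 (-1.52 ± 0.19, adjusted p = 9.22e-07), Ccnd1 (-2.27 ± 0.29, adjusted p = 1.21e-06) and Tmem131l, a membrane inhibitor with 0 UMIs in large artery cells (adjusted p = 0.00437), were lower there, and Ccnd2 was higher (0.80 ± 0.16, adjusted p = 0.000577).

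Blood capillary cells had 5 of the 59 higher and 10 lower than artery and vein cells, or 25.4% against 10.5% of all genes. Ccnd1 (1.85 ± 0.14, adjusted p = 6.94e-11), Ctnnbip1 (0.96 ± 0.10, adjusted p = 9.05e-08), Bambi (0.69 ± 0.15, adjusted p = 0.00176) and Tmem131l (2.86 ± 0.65, adjusted p = 0.00311) were higher. The Tmem131l change is against a mean of log levels that takes in the 0 CPM of large artery cells. Blood capillary cells held 24.9 and 22.0 CPM of it and arteriole cells 13.2 and 22.8 CPM, which overlap. Adgra2 (-1.88 ± 0.37, adjusted p = 0.000559) and Ccnd2 (-0.47 ± 0.11, adjusted p = 0.00529) were lower. With Adgra2, Fzd4 and Fzd6 among them, 4 of the 13 tested receptors and co-receptors were lower, or 30.8% of them, where 4.7% of all genes were lower. The Fzd4 and Fzd6 calls were lost with stricter gates (adjusted p = 0.130 and 0.196), and that of Fzd4 also without the library block (adjusted p = 0.136). Fzd4 was not lower than in arteriole cells (105 and 135 CPM against 100 and 126 CPM). Tip cells had 4 of the 59 higher than blood capillary cells and 0 lower, or 6.78%, near the 4.54% of all genes. These were Cd44 (41.8 and 18.9 CPM against 10.4 and 3.76 CPM, 2.10 ± 0.36, adjusted p = 0.00036), Ctnnbip1 (469 and 386 CPM against 336 and 267 CPM, 0.50 ± 0.11, adjusted p = 0.00406), Tnfrsf11b (1.69 ± 0.39, adjusted p = 0.00796) and the secreted inhibitor Sfrp1 (21.4 and 9.00 CPM against 0 and 0 CPM, adjusted p = 0.000464).

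The genes whose levels followed each of the 9 most closely over the 20 type-by-library sums are given as a description, since the sums share libraries and depth. Dkk2 was followed by Slco1a4, Avpi1 and Atp2a3 (Pearson's r of log2 CPM of 0.951, 0.949 and 0.926), each highest in large artery cells. Fzd4 was followed by Erap1, Cavin1 and Prelid2 (0.95, 0.935 and 0.934), of which Prelid2 was highest in vein and the others in large artery cells. Fzd6 was followed by Tec, Wbp1l and Slit3 (0.945, 0.928 and 0.895), which were highest in collecting-type or valve cells. The likeness was lower for Lrp6 (Slc6a6, Podxl and Sox13 at 0.883, 0.861 and 0.857), Ctnnb1 (Nedd4, S1pr1 and Snx10 at 0.870, 0.863 and 0.859) and Lrp5 (Cpd, Nuak1 and Ifitm3 at 0.824, 0.824 and 0.815). Cpd and Nuak1 were highest in large artery cells, whereas Lrp5 was highest in vein cells. Since all these genes were picked by their correlation, a shared top type is no separate result. Lef1, Axin2 and Apcdd1 stayed below a mean of 10 CPM in each of the 10 types and were not compared in this way.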

How the data were processed

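Cellular mRNA of 2 neonatal libraries was analysed. The authors deposited unnormalized UMI counts for each gene in each cell barcode. Cell Ranger and the build mm10 appear in the submitters' processing notes, and software version 3.0.2 in the file headers. The rule for kept barcodes: not given in the sources used here. Cells with at least 500 genes and at most 10% mitochondrial UMIs were kept, and Scrublet in scanpy 1.11.5 removed 2 and 11 doublets (0.347% of 3750 cells). Cells were gated on markers drawn from a list of 124 in 20 sets, with thresholds set on the markers' own distributions. Not every marker or set entered a gate. Free RNA was not corrected. UMIs were summed per library and type and tested with edgeR 4.0.16 in R 4.3.3 (TMM scaling, low-count filter by type, quasi-likelihood test, Benjamini-Hochberg adjustment, threshold 0.05). The 10 types entered 1 fit with library as a block, since each library gives every type, and 9 residual degrees of freedom. The gates and the tests used the same cells. With the block, p-values measure only how differences between types vary between these 2 libraries. That spread is pooled over the 10 types and drawn toward values shared across genes. A change against several types is against the mean of their log levels, and their level is the mean of their CPM. A standard error here is the size of a log2 change over the root of its F value. DESeq2 1.42.0 was an alternative. On simulated counts with 200 changed genes among 10525, 2-fold changes were found for 39.0% and 4-fold changes for 62.0% of genes between large artery and arteriole cells, with 4.72% of calls false, and 43.0% and 73.0% between valve and other lymphatic cells, with 7.94% false. The simulated counts took their spread from the fit and held no other difference between types, and none between libraries beyond depth. These shares therefore do not measure the errors of the tests on the real counts.

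The 9 genes, the marker sets and the Wnt lists were chosen with earlier results of these data known. Besides the 9 genes, up to 6 genes of the lists with the smallest adjusted p among those that passed were named in each comparison, and the 3 genes with the highest correlation with each of the 9 that reached 10 CPM in some type. Exact intervals are Clopper-Pearson intervals at 95%. Alternatives were DESeq2, no low-count filter, no library block, Leiden clusters (19, from 1487 genes without the Wnt lists), gates with 1 more marker, no cell filter, doublets kept, each library left out, and shares of cells thinned to 4000 UMIs.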

Additional observations from a re-analysis of the deposited data

How the results depend on the processing

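Of the 17 calls, 17 held with no low-count filter, with no cell filter and with doublets kept, 16 with DESeq2, 15 with Leiden clusters and 8 of 16 with stricter gates, which left 15 valve cells and 9 large artery cells in library 2, under the 10 otherwise required. The 3 calls lost without the replicate block are named with the results. None of the 17 changed sign in a setting run. Genes called over all genes tested came, without the replicate block, to 434 in place of 660 (collecting-type against capillary lymphatic) and to 183 in place of 478 (tip against blood capillary), where DESeq2 gave 248 and Leiden clusters 255. Leiden clusters gave 1064 in place of 704 for valve and 2057 in place of 1109 for blood capillary, and stricter gates gave 387 for valve, 490 in place of 1104 for large artery and 661 for blood capillary. The cause was not tested.

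Of the 9 genes, those called in collecting-type cells were 1 in place of 2 with DESeq2, without the replicate block and with stricter gates. With stricter gates they were 0 in valve (2 before), 2 in lymphatic against blood (4 before), 2 in artery against vein (4 before), 1 in blood capillary (3 before) and 1 in tip cells (0 before). Leiden clusters gave 2 in artery against vein and 2 in tip cells, and tip cells had 1 with no low-count filter and with no cell filter. With DESeq2 and Leiden clusters Dkk2 was lower in lymphatic than in blood types (-2.76 and -5.71, adjusted p = 0.0119 and 3.04e-05).

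Changes that had not passed turned sign as follows. With Leiden clusters, Dkk2 was -3.03 in collecting-type cells, Fzd6 -0.020, Axin2 -0.14 and Ctnnb1 -0.051 in large artery, Lrp6 -0.33 and Axin2 -0.13 in blood capillary, and Fzd6 0.031, Lrp6 0.014 and Ctnnb1 0.020 in tip cells. With stricter gates, Dkk2 was -2.48 in collecting-type cells, and Lrp6 -0.25 and Ctnnb1 -0.070 in large artery. With no low-count filter, Lrp6 was -0.0097 and Ctnnb1 -0.028 in large artery, and with DESeq2 Lrp6 was -0.010 in blood capillary. Of 98 values from 1 library alone, 13 turned sign, 0 of them among the 17 calls. Without library 1 these were Dkk2 at -1.11 in valve, Axin2 at -0.39 in artery against vein, Axin2 at -0.12 and Ctnnb1 at -0.014 in large artery, and Fzd6 at 0.12 in tip cells. Without library 2 they were Lrp6 at -0.25 and Axin2 at -0.78 in collecting-type cells, Ctnnb1 at -0.017 in lymphatic against blood, Fzd4 at -0.034 in artery against vein, Lrp5 at -0.15 in large artery, Lrp6 at -0.023 in blood capillary, and Fzd4 at 0.0055 and Axin2 at -0.46 in tip cells.

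The type with the highest level stayed the same for 5 of the 9 genes by thinned shares of cells, and for 7 and 6 of them without library 1 and without library 2. Depth limits Lef1, Apcdd1 and Axin2 most, since 3 UMIs are 1 to 13.9 CPM in a type and library.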

Other observations

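Cells set aside for 3 or more pericyte and smooth muscle markers (103 and 146 cells) entered no comparison. They held 122 and 119 CPM of Fzd4, 21.0 and 17.2 CPM of Fzd6, 24.5 and 21.9 CPM of Lrp5, 44.2 and 44.4 CPM of Lrp6 and 419 and 423 CPM of Ctnnb1 in libraries 1 and 2. Ctnnb1 was lower there than in each of the 10 endothelial types in both libraries. Apcdd1 stood at 2.80 and 1.57 CPM, Axin2 at 2.80 and 5.75 CPM and Lef1 at 0.701 and 2.09 CPM. Their summed pan-endothelial level was 3447 and 3037 CPM, against 2110 to 6028 CPM in the endothelial types, so these barcodes carried markers of both kinds of cell.

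Blood endothelial cells that were neither dividing nor in the vein gate and had a UMI of Sele, an adhesion molecule of activated endothelium (77 and 212 cells, a gate that can share cells with the other blood types), held 32.8 and 28.1 CPM of Lrp5 and 3.52 and 9.98 CPM of Axin2. Their Fzd6 level, at 52.8 and 28.1 CPM, overlapped that of blood capillary cells, at 40.1 and 27.4 CPM.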
